A study of Mus musculus with 56 samples.

Results

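At 14 weeks of age, spinal cord RNA from hTDP-43A315T mice was compared with that from Chat bacTRAP mice in 9 whole-cord libraries, 4 of the first genotype and 5 of the second. They were chosen by genotype, age and fraction as the sample titles give them, from 31 spinal cord libraries and 56 libraries in all. The study sequenced 3 genotypes at 9 and 14 weeks, each as ribosome-bound RNA of motor neurons and as the spinal cord lysate kept as input. All mice carried the Chat bacTRAP transgene (line DW167), which puts an EGFP-tagged ribosomal protein into cells that express Chat, so the controls were transgenic too. The hTDP-43A315T mice (line 95Balo/J) additionally expressed human TDP-43 with an amyotrophic lateral sclerosis (ALS) mutation from the prion promoter. A further control, hTDP-43WT (line 3cPtrc/J), expressed the unmutated human protein from the same promoter. The study describes the animals as female, the hTDP-43A315T mice of 14 weeks as early symptomatic and those of 9 weeks as not yet symptomatic. Each transgene was represented by 1 line, so an effect of the insertion site and an effect of the protein cannot be told apart. The libraries were made from lysate that had been cleared of debris by centrifugation, and their label for the cells is all cells of the cord.

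TDP-43, the product of Tardbp, is an RNA-binding protein that is displaced from the nucleus of motor neurons in most ALS. Around stressed or dying motor neurons, astrocytes become reactive, enlarging their intermediate filament network of Gfap and Vim and secreting acute-phase proteins such as Serpina3n. Microglia, the resident macrophages, leave their resting state, switch on genes for lysosomal handling, lipid sensing and chemokines, among them Lgals3 (galectin-3), Cst7 and Itgax, and engulf debris. Whole-cord RNA reads both responses because these cells are part of the sample, whereas motor neurons make up a small share of it. In such bulk samples, more cells of a type and more RNA per cell cannot be told apart.

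The 9 libraries held between 24350628 and 76878108 counts. The cord's own markers were counted in all of them, among them Snap25 for neurons, Slc1a2 for astrocytes, Mog for oligodendrocytes, P2ry12 for microglia and Chat for motor neurons. The labels give the tissue as cervical, but Hox genes of lower levels were read in every library, with Hoxc10 at 39.7 to 65.7 CPM (counts scaled to an equal library total), and the study speaks of spinal cords removed whole. The share of mitochondrially encoded counts differed between the libraries. It was 1.57%, 1.42%, 1.08% and 1.72% in hTDP-43A315T replicates 1 to 4. In Chat bacTRAP it was 1.14% in replicate 1 and 8.53%, 6.42%, 5.52% and 7.65% in replicates 2 to 5, so that 1 control stood with the hTDP-43A315T libraries and the other 4 stood apart from them. The means were 1.45% ± 0.275 (SD, n = 4) and 5.85% ± 2.87 (SD, n = 5), a difference that an exact two-sided permutation test put at p = 0.0635 (0.191 after adjustment over the 3 library properties tested, 0.0159 being the smallest p this design allows). The labels name no batch. No pair of libraries was alike within counting noise. The labels number the replicates without naming the animals, so the p-values measure a spread between libraries. For the gene tests it was estimated over all 31 cord libraries and not the 9 alone.

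A pair of pseudogenes marked the genotype in the cord libraries. Gm13886, a processed pseudogene of Tardbp (chr2:104820179-104821361, GRCm38), whose transcript is identical to that of mouse Tardbp at 94.2% of 1202 aligned bases, had normalized counts (counts divided by the library's size factor) of 480, 514, 262 and 398 in hTDP-43A315T. In Chat bacTRAP it had 2.41, 0, 1.63, 3.3 and 0. The groups were far apart (log2 change 7.95 ± 0.46 (SE), adjusted p = 5.63e-13). In the hTDP-43WT cord libraries of 14 weeks it stood between 68.1 and 118, above Chat bacTRAP and below every hTDP-43A315T library. Lamr1-ps1 (chr2:131904086-131904959), a processed pseudogene that ends 4968 bases before Prnp, the source of the transgenes' promoter, had normalized counts of 30.0, 35.4, 28.5 and 37.1 in hTDP-43A315T. It had 1 read in Chat bacTRAP replicate 1 and none in the other 4 controls, and none in the hTDP-43WT cord libraries of 14 weeks. The summed counts were 289 against 1, a ratio of 275 per unit of depth with a 95% counting interval of 48.9 to 10882. Which molecules these reads came from was not tested. Among the motor neuron libraries of 14 weeks, Lamr1-ps1 reached 47.1 normalized counts in hTDP-43WT (median 0) and Gm13886 reached 64 in Chat bacTRAP (median 0). Mouse Tardbp itself had a log2 change of -0.08 ± 0.13 (adjusted p = 0.763) and Prnp 0.32 ± 0.11 (adjusted p = 0.183), and the groups overlapped for both. With the mitochondrial share as a covariate in the edgeR fit, Prnp stood at 0.56 (adjusted p = 0.00536) and Tardbp at 0.00.

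Beyond these, the genotypes differed in few genes, among them markers of reactive astrocytes and microglia. Of 18178 genes tested with edgeR's quasi-likelihood test, fitted over all 31 cord libraries, 49 passed a Benjamini-Hochberg adjusted p of 0.05 (0.27%), 29 higher (0.16%) and 20 lower (0.11%) in hTDP-43A315T. Of the 49, 30 differed at least 2-fold (0.165%), 19 higher and 11 lower. At an unadjusted p below 0.05 there were 3000 genes (16.5%), 1100 higher (6.05%) and 1900 lower (10.5%), and the median log2 change of all genes was -0.01. Among the 29 risers, 13 are glial or immune genes by their known roles (a grouping made after the values were seen): Serpina3n, Gfap, Vim, C4b, Lgals3, Cst7, Itgax, Gpnmb, Ccl3, Ccl4, Mmp12, Irf8 and Nckap1l. In 27 of the 29 risers and 16 of the 20 falls the groups did not overlap, where 1.52% of all genes tested were higher and 1.53% lower without overlap. These genes were picked by their p in the same libraries, so the lack of overlap is a description and not separate evidence. The number of genes depended on 1 control: without Chat bacTRAP replicate 1, the library of low mitochondrial share, 907 genes passed (317 higher, 590 lower), while leaving out any other library gave 20 to 37. All 49 genes were among those that passed without it, in the same direction.

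**Figure D1:**
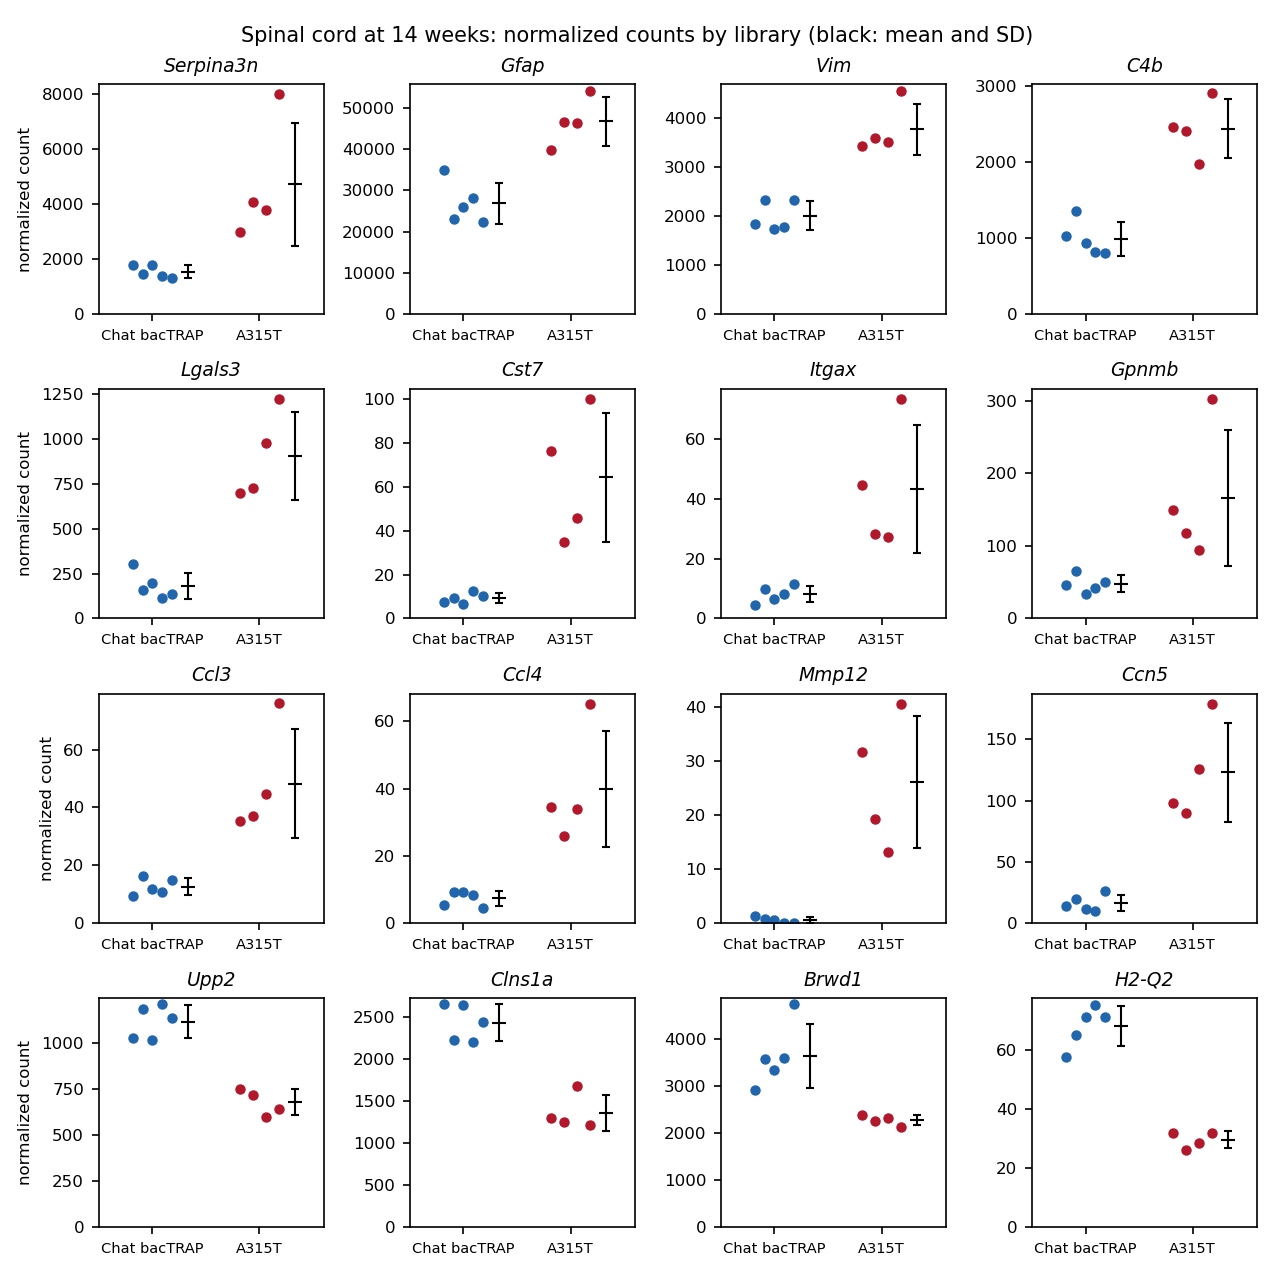
Normalized counts (vertical axes, linear and starting at 0) of 16 genes in the 9 spinal cord libraries of 14 weeks, 5 Chat bacTRAP in blue and 4 hTDP-43A315T (A315T) in red, with the mean and SD in black. The groups do not overlap in any of the 16, with Lgals3 between 115 and 301 in Chat bacTRAP and between 698 and 1224 in hTDP-43A315T, and Upp2 between 1020 and 1216 against 601 to 754.

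Serpina3n, an inhibitor of serine proteases secreted by reactive astrocytes, rose about 3-fold (3.13). Its normalized counts were 2991, 4065, 3794 and 8001 in hTDP-43A315T and 1773, 1453, 1790, 1380 and 1287 in Chat bacTRAP. Every hTDP-43A315T library lay above every control, and replicate 4 was the highest by far. The log2 change was 1.65 ± 0.19 (SE, adjusted p = 7.72e-06) and stayed between 1.27 and 1.81 when any library was left out. Serpina3n has close copies beside it in the genome, and reads shared among them could be assigned unevenly. In the motor neuron libraries of Chat bacTRAP at 14 weeks it had 2357 to 4444 normalized counts, above its cord controls. Which cells its cord reads came from was not tested. The filament genes rose less. Gfap had normalized counts of 39766, 46643, 46468 and 54088 against 34920, 22939, 25894, 28044 and 22315, a log2 change of 0.83 ± 0.14 (adjusted p = 0.00269). Vim, the other intermediate filament of reactive astrocytes, had 3419, 3589, 3517 and 4540 against 1843, 2333, 1743, 1775 and 2322, a log2 change of 0.95 ± 0.16 (adjusted p = 0.00321). Neither gene's groups overlapped, and the control nearest to the hTDP-43A315T libraries for Gfap was replicate 1. With the mitochondrial share as a covariate Gfap stood at 0.59 (adjusted p = 0.055), and Serpina3n and Vim still passed.

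The promoter of Gfap is shown because STAT3 is a known regulator of this gene in reactive astrocytes. The window, from RefSeq on GRCm38.p6 (chr11:102897151-102897450, minus strand), runs from 250 bases before the start site to 50 after it, with the STAT motif TTCNNNGAA in capitals, beginning 2 bases before the start.
Gfap: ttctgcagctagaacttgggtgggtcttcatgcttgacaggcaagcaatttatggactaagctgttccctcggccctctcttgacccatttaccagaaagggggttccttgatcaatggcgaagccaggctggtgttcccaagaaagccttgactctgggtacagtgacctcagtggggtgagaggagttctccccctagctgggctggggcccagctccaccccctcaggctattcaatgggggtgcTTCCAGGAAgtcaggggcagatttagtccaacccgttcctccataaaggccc
The motif reads the same on both strands and occurred in 8.47% of 27025 promoters. Among the 49 genes that passed, 35 had a promoter in the table, and 3 held the motif, Gfap, Irf8 and Cdsn. Stat3 had a log2 change of 0.42 ± 0.12 (adjusted p = 0.122), with normalized counts of 2344 to 2677 in hTDP-43A315T and 1627 to 2205 in Chat bacTRAP that did not overlap. Socs3, the feedback inhibitor of this pathway, had 0.78 ± 0.23 (adjusted p = 0.132).

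Serpina3n, Gfap and Vim were the 3 genes that passed out of 13 on a list of reactive astrocyte genes shared among injuries, which had a median log2 change of 0.45 beside -0.01 over all genes. Of all genes 0.16% passed as higher, and 6.05% were higher and 10.5% lower at an unadjusted p below 0.05. Of the remaining 10, Timp1, an inhibitor of matrix metalloproteases, had 1.42 ± 0.38 (adjusted p = 0.102), with normalized counts of 35.1 to 55 above those of 12.1 to 20.6 in the controls. Cxcl10, an interferon-responsive chemokine, had 0.98 (adjusted p = 0.175), and Lcn2, a secreted iron-siderophore carrier, -0.81 (adjusted p = 0.407). None of 12 genes known to follow an inflammatory stimulus passed (median -0.16, with 1 higher and 4 lower at an unadjusted p below 0.05, and 1 higher by DESeq2), although C3, the central complement component, came close with normalized counts of 1305, 1226, 1113 and 1309 against 853, 768, 592, 838 and 688. The groups did not overlap for C3 (log2 change 0.76 ± 0.18, adjusted p = 0.0615), and it passed on omission of Chat bacTRAP replicate 1 (adjusted p = 0.0217). None of 11 genes known to follow ischemia passed (median 0.10, 2 higher unadjusted, 0 by DESeq2). Astrocyte identity genes did not pass either, 0 of 20 with a median of -0.39, of which 6 were lower and 1 higher at an unadjusted p below 0.05 and 0 passed by DESeq2. In that list the gap junction gene Gja1 stood at -0.94 (adjusted p = 0.143) and the folate enzyme Aldh1l1 at 0.53 (adjusted p = 0.143). With the mitochondrial share as a covariate Gja1 stood at -0.14, Aldh1l1 at 0.20 and the list's median at 0.00.

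Complement C4b, which astrocytes and microglia make and which tags material for removal, rose with normalized counts of 2464, 2417, 1979 and 2918 against 1033, 1357, 929, 814 and 802. The groups were separate and no library was decisive (log2 change 1.34 ± 0.22, adjusted p = 0.0018). C4b lies beside its near-identical copy C4a, so part of its reads could belong to the copy. With Itgax it made up the 2 that passed of 23 complement genes tested, where 0.16% of all genes passed as higher. The list had a median of -0.14. The C1q subunits had log2 changes of 0.60 for C1qa, 0.46 for C1qb and 0.50 for C1qc, with adjusted p-values of 0.327, 0.372 and 0.339. Cfp (properdin), a product of myeloid cells, lay below every control in hTDP-43A315T at -1.11 ± 0.27 (adjusted p = 0.0707).

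Lgals3, a galectin that binds sugars on cell surfaces and damaged lysosomes and marks reactive microglia, rose 5.05-fold. Its normalized counts were 698, 727, 981 and 1224 in hTDP-43A315T and 301, 157, 196, 115 and 137 in Chat bacTRAP. The lowest hTDP-43A315T library held more than any control, and Chat bacTRAP replicate 1 was the highest control. The log2 change was 2.34 ± 0.28 (adjusted p = 7.72e-06), and it lay between 2.16 and 2.62 on omission of any library. Cst7 (cystatin F, an inhibitor of lysosomal proteases) had 76.6, 34.9, 45.8 and 100 against 7.63, 9.18, 6.52, 12.4 and 10.3. All hTDP-43A315T libraries were above the controls, with replicates 1 and 4 the highest (log2 change 2.86 ± 0.42, adjusted p = 0.000362). Itgax, the integrin chain CD11c, had 44.7, 28.1, 27.3 and 73.3 against 4.42, 9.89, 6.52, 8.25 and 11.4, again without overlap and with replicates 1 and 4 on top (2.51 ± 0.39, adjusted p = 0.000982). Gpnmb, a glycoprotein of lysosome-rich phagocytes, had 149, 118, 94.5 and 303 against 46.6, 65.7, 34.2, 42.1 and 50.3 (1.84 ± 0.31, adjusted p = 0.00269), and it lost the threshold without hTDP-43A315T replicate 4 (adjusted p = 0.0597).

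The promoter windows of Cst7, Itgax and Gpnmb are printed to show where a loose form of the AP-1 motif (TGANTCA, with any base at N) lies in these microglial genes. They were the 3 of the 35 promoters with this motif, a share near the 7.93% of all promoters that hold it. AP-1 is bound by dimers of Jun, Fos and Atf family proteins. The coordinates (RefSeq, GRCm38.p6, plus strand) are chr2:150570165-150570464 for Cst7, chr7:128129300-128129599 for Itgax and chr6:49036268-49036567 for Gpnmb. Capitals mark the motif, which was searched on both strands and begins 6 bases before the start site in Cst7, 56 before it in Itgax and 8 after it in Gpnmb.
Cst7: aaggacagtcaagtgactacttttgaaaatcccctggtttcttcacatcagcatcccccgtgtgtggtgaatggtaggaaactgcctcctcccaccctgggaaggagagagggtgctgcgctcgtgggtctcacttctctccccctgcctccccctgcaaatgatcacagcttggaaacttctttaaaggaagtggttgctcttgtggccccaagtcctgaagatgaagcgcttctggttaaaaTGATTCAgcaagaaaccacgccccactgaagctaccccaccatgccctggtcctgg
Itgax: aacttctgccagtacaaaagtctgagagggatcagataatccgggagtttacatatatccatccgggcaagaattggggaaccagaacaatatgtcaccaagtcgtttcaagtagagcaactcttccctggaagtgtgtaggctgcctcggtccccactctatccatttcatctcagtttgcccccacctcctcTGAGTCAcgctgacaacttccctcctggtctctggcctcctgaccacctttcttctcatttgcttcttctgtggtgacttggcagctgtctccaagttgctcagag
Gpnmb: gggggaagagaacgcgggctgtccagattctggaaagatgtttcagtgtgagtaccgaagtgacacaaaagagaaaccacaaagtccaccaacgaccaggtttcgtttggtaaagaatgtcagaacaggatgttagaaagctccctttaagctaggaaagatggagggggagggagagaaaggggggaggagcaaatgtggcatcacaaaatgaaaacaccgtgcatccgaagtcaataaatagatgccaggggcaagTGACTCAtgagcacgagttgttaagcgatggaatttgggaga
A match is a description of these letters and not of a bound site. Of other motifs searched on both strands, GAGGAA, the core of the macrophage factor PU.1, occurred in 16 of the 35 promoters (28.3% of all promoters) and a loose form of the NF-kB motif in 25 (50.4%). The E-box CACGTG occurred in 3 (7.24%) and the CRE TGACGTCA in 0 (1.88%).

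The chemokines Ccl3 and Ccl4, which draw myeloid cells, rose from low levels. Ccl3 had normalized counts of 35.4, 37, 44.6 and 76.1 against 9.24, 16.2, 11.9, 10.7 and 14.9 (log2 change 1.99 ± 0.39, adjusted p = 0.0138). Ccl4 had 34.5, 26, 33.9 and 65.3 against 5.22, 9.18, 9.23, 8.25 and 4.57 (2.46 ± 0.44, adjusted p = 0.00486). Neither overlapped, and hTDP-43A315T replicate 4 held the most of both. Without it the adjusted p was 0.134 for Ccl3 and 0.0688 for Ccl4. Mmp12, the macrophage metalloelastase, went from nearly no reads in Chat bacTRAP (1.21, 0.706, 0.543, 0 and 0) to 31.6, 19.3, 13.1 and 40.4 (5.27 ± 0.73, adjusted p = 0.000127), and it overlaps Mmp1b on the other strand. Irf8, a transcription factor of microglia and macrophages, rose by a log2 change of 0.82 ± 0.18 (adjusted p = 0.0382) and Nckap1l, an actin regulator of blood and myeloid cells, by 0.71 ± 0.15 (adjusted p = 0.0277). Irf8 passed in 2 and Nckap1l in 3 of the 9 omissions of a library, and both stood at 0.188 without hTDP-43A315T replicate 4.

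Of 34 disease-associated microglia genes tested, 6 rose (Lgals3, Cst7, Itgax, Gpnmb, Ccl3 and Ccl4), none fell, and the median log2 change was 0.20. Over all genes tested 0.16% passed as higher and 1.52% were higher without overlap. An unadjusted p below 0.05 was met by 6.05% of all genes as higher and 10.5% as lower. Several members of the same list were higher in every hTDP-43A315T library than in every control without passing, namely Clec7a, the beta-glucan receptor, at 1.33 ± 0.42 (adjusted p = 0.15), the lysosomal protein gene Cd68 at 0.89 ± 0.28 (adjusted p = 0.147) and the lysozyme gene Lyz2 at 0.96 ± 0.31 (adjusted p = 0.158). Apoe, the lipid carrier that astrocytes also make, stood at 0.10 ± 0.30 (adjusted p = 0.882) and Spp1 (osteopontin), also a motor neuron gene, at -0.37 ± 0.13 (adjusted p = 0.18). None of 20 homeostatic microglia genes passed (median -0.13, 3 higher and 1 lower unadjusted, 0 by DESeq2). P2ry12, a purinergic receptor lost by reactive microglia, had -0.76 ± 0.31 (adjusted p = 0.231), whereas Tyrobp, the adaptor of Trem2, had 0.66 ± 0.25 (adjusted p = 0.21), and both overlapped. With the mitochondrial share as a covariate P2ry12 stood at 0.15, Tyrobp at 1.05 and the median of the homeostatic list at 0.36. Of 23 cytokine, chemokine and receptor genes only Ccl3 and Ccl4 passed (median 0.11), and of 32 interferon and antigen presentation genes none (median -0.14, 3 lower unadjusted, 0 by DESeq2).

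**Figure D2:**
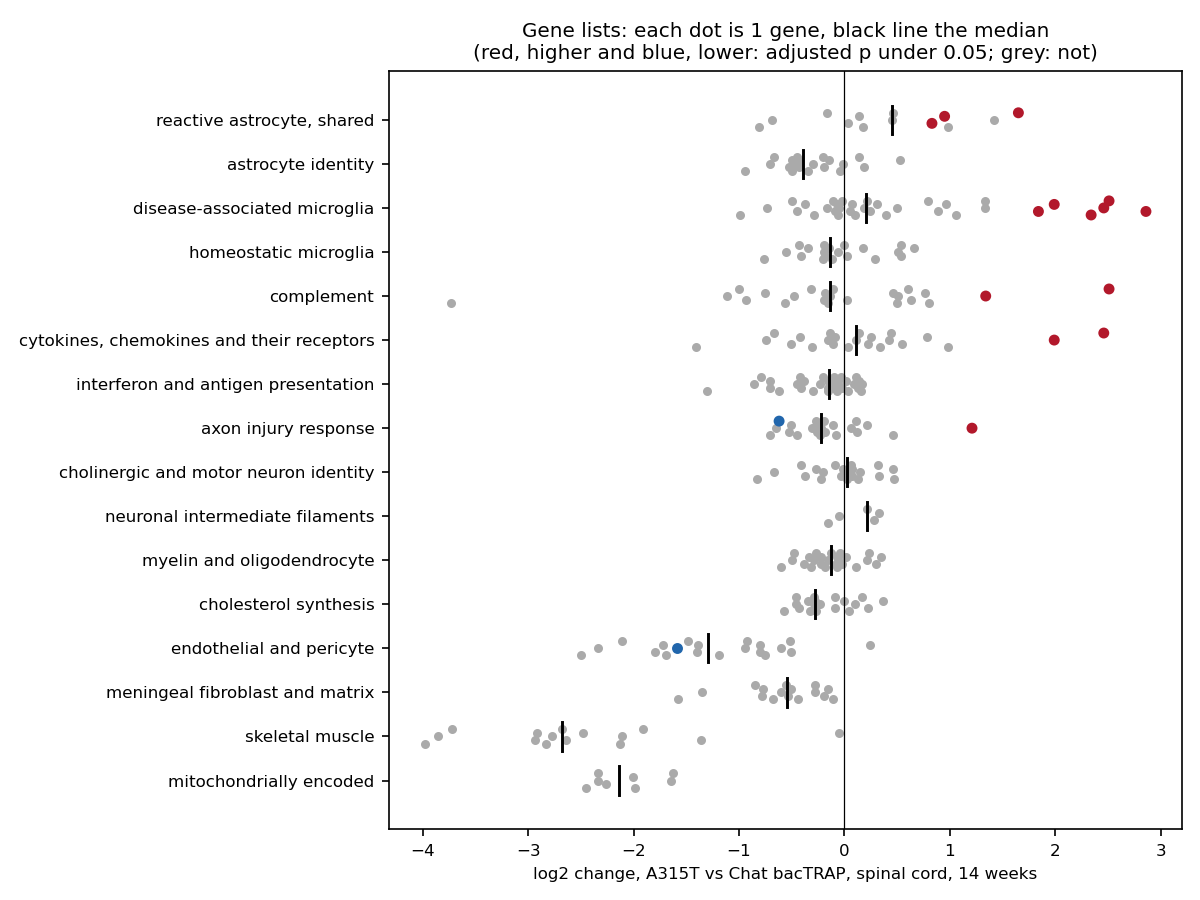
Log2 change between hTDP-43A315T and Chat bacTRAP at 14 weeks (horizontal axis) for the tested genes of selected lists (rows). Each dot is 1 gene, grey where the adjusted p was 0.05 or above, red where a gene passed as higher and blue as lower, and the black line is the median, which lies at 0.45 for the shared reactive astrocyte genes, at 0.20 for disease-associated microglia and at -1.29 for endothelial cells and pericytes.

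The same comparison at 9 weeks, in 5 and 6 libraries of other animals, shows how the genes of 14 weeks stood before symptoms. There 79 genes passed (0.435%), 57 higher (0.314%) and 22 lower (0.121%). Of the 29 genes higher at 14 weeks, 29 had the same sign at 9 weeks and 21 passed, which is 72.4% of the list at 14 weeks and 36.8% of that at 9 weeks. Of the 20 lower genes, 20 had the same sign and 6 passed (30% and 27.3%). The median log2 change of the risers was 1.65 at 14 and 1.27 at 9 weeks, and that of the falls -1.10 and -0.64. Both ages share 1 estimate of the spread, and the libraries of 9 weeks carried a like difference, with mitochondrial shares of 0.965% to 1.42% in hTDP-43A315T and 0.98% to 5.41% in Chat bacTRAP, whose part in these counts was not tested.

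Several microglial genes, though not Lgals3, had numerically higher changes at 9 weeks. Cst7 had a log2 change of 4.31 ± 0.42 (adjusted p = 1.38e-07), Itgax 3.66 ± 0.40 (1.52e-06) and Ccl3 3.18 ± 0.38 (7.1e-06), while Lgals3 stood at 2.18 ± 0.25 (4.57e-06). Clec7a (2.27, adjusted p = 0.00187) and Cd68 (1.22, adjusted p = 0.0177) passed at 9 weeks. Serpina3n, Vim and Gfap had lower values there, at 1.30 ± 0.18 (adjusted p = 4.84e-05), 0.80 (0.00484) and 0.49 (0.0968). A test of the difference between the ages found no gene at an adjusted p below 0.05 with edgeR and none with DESeq2. At an unadjusted p below 0.05 edgeR gave 351 of 18178 genes (1.93%), so these orders were not shown to be beyond the spread.

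**Figure D3:**
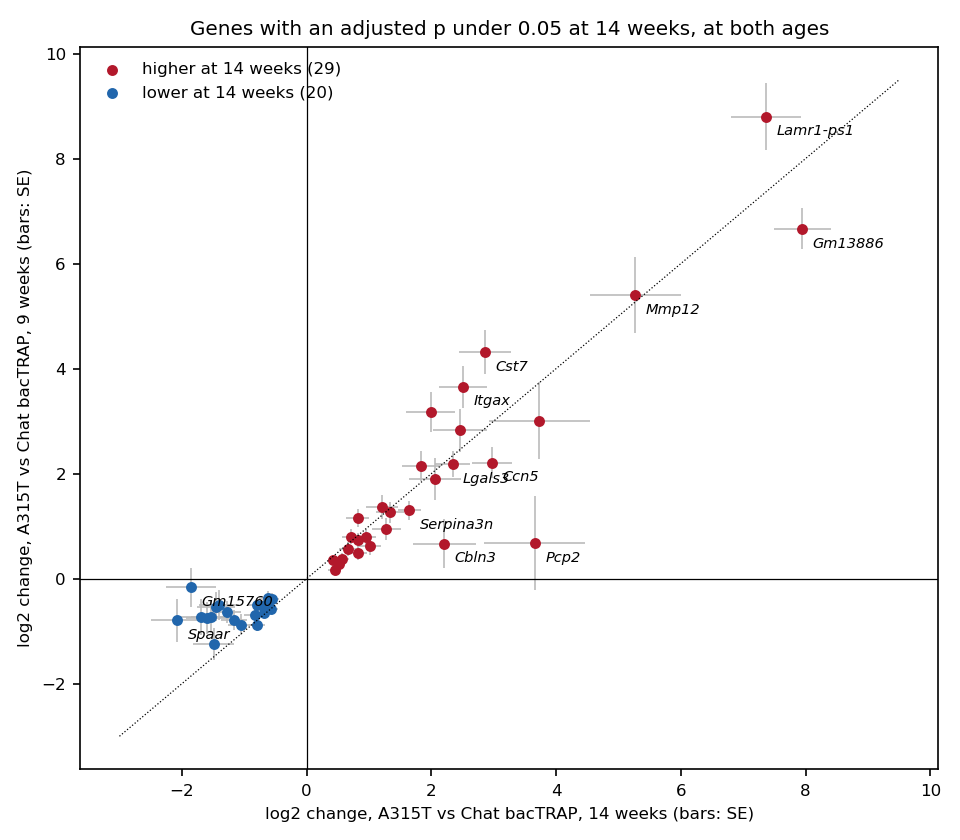
Log2 change between hTDP-43A315T and Chat bacTRAP at 14 weeks (horizontal axis) and at 9 weeks (vertical axis) for the 49 genes that passed at 14 weeks, with the SE as bars, 29 higher in red and 20 lower in blue. The dotted line marks equal change. All 49 genes have the same sign at both ages, and Pcp2 and Cbln3 lie far below the line.

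The hTDP-43WT libraries show how these genes stood with unmutated human TDP-43. Each comparison with them shares libraries with that of hTDP-43A315T and Chat bacTRAP, so the values are only set side by side. Between hTDP-43WT and Chat bacTRAP at 14 weeks 1 gene passed (0.0055%), Gm13886 (log2 change 5.79). None of the 13 glial and immune genes passed there. Serpina3n had a log2 change of -0.02, Gfap 0.19, Vim -0.41 and C4b -0.40. Lgals3 had -0.12, Gpnmb -0.05, Ccl3 -0.06, Ccl4 -0.42, Cst7 -0.40, Itgax -0.85, Irf8 -0.14, Nckap1l -0.08 and Mmp12 1.23, and of the 13 only Vim had an unadjusted p below 0.05 (0.0132). In normalized counts Lgals3 ran from 93.9 to 278 in hTDP-43WT (median 145) and Serpina3n from 1308 to 1825 (median 1394), so both stayed below every hTDP-43A315T library. Against hTDP-43WT, 58 genes passed in hTDP-43A315T (0.319%), with Lgals3 at 2.46 (adjusted p = 4.63e-06), Serpina3n at 1.67 (6.51e-06), Vim at 1.36 (1.2e-05), C4b at 1.75 (2.31e-05) and Gfap at 0.64 (0.0356). Upp2 (-0.66, adjusted p = 0.000122), Clns1a (-0.74, 0.00338) and Brwd1 (-0.54, 0.0143) passed as lower.

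**Figure D4:**
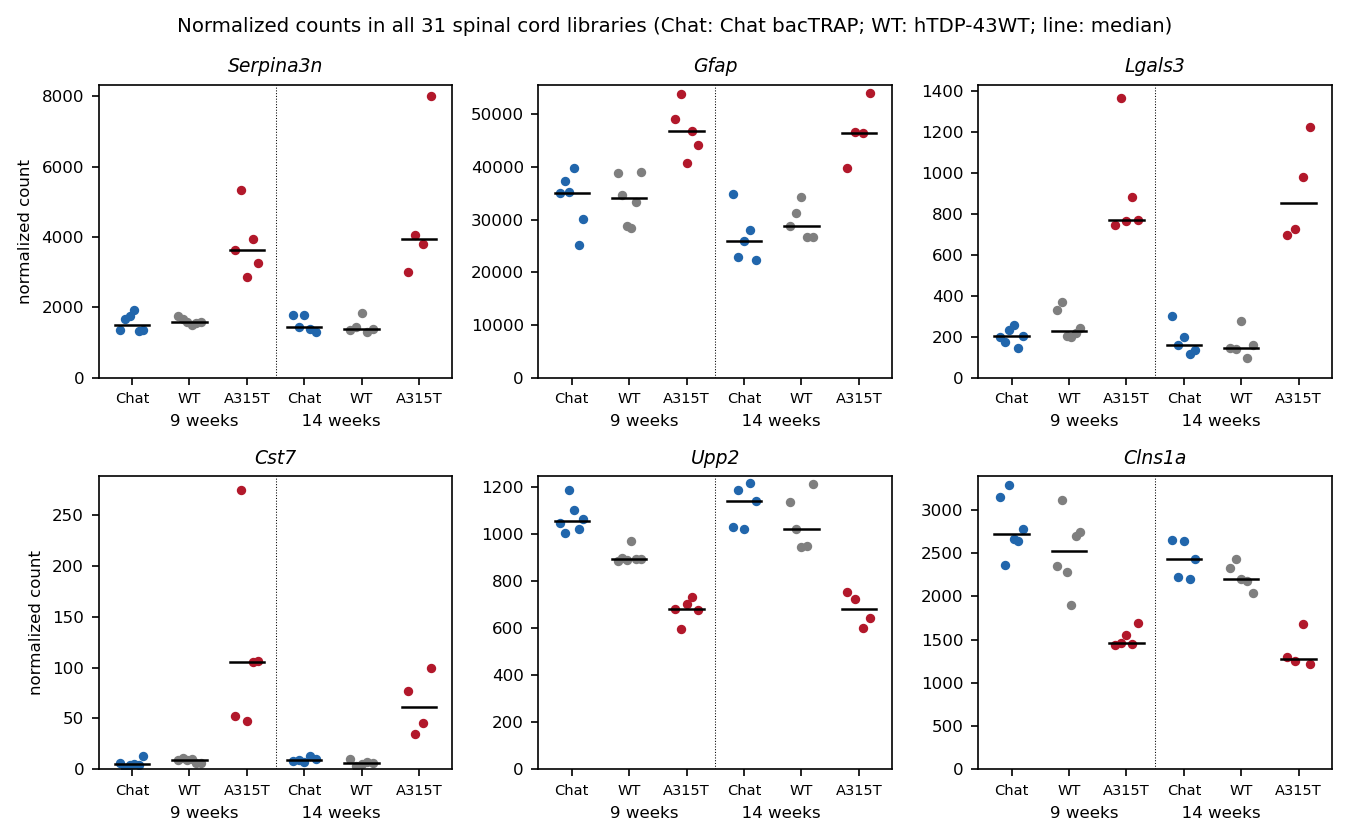
Normalized counts (vertical axes, linear and starting at 0) of 6 genes in all 31 spinal cord libraries, by genotype at 9 weeks (left of the dotted line) and 14 weeks (right), with Chat bacTRAP in blue, hTDP-43WT in grey, hTDP-43A315T in red and the group median as a line. For Lgals3 at 14 weeks the medians are 157, 145 and 854 in this order.

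Outside the glial genes and the pseudogenes that marked the genotype, the rise of lowest adjusted p was that of Ccn5 (also called Wisp2), a secreted matrix protein of the CCN family. It had normalized counts of 97.6, 89.6, 126 and 179 in hTDP-43A315T and 14.1, 19.8, 11.4, 9.9 and 26.3 in Chat bacTRAP. The groups were well apart in every library (log2 change 2.98 ± 0.32, adjusted p = 1.33e-06), and the change was 2.21 at 9 weeks (adjusted p = 3.8e-05) and -0.28 in hTDP-43WT. Atf3, a transcription factor induced in injured neurons and other stressed cells, had 103, 93.3, 92.7 and 151 against 39.4, 51.6, 50.5, 54.4 and 49.2, without overlap (1.21 ± 0.25, adjusted p = 0.0217, and 0.169 without hTDP-43A315T replicate 4). It was the riser among 22 axon injury genes, of which Adcyap1, the neuropeptide PACAP, fell (-0.62 ± 0.14, adjusted p = 0.0412, with overlap) and the median was -0.23. Of all genes 0.16% passed as higher and 0.11% as lower. Adcyap1 passed in 1 of the 9 omissions of a library, with an adjusted p of 0.177 without hTDP-43A315T replicate 1.

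Further risers included genes of low counts. Rnasek, an endosomal ribonuclease gene that shares its locus with Gm21988, rose with 70.2, 75.5, 89.7 and 96.8 against 41.4, 36, 41.3, 28.9 and 25.1 (log2 change 1.28 ± 0.23, adjusted p = 0.00402). The antisense transcript Gm15510 had 1.01 ± 0.18 (adjusted p = 0.00402), and its reads cannot be told from those of Zfp580 and Ccdc106 on the other strand. Plin2, which coats lipid droplets, had 0.52 ± 0.10 (adjusted p = 0.0168), the dehydrogenase gene Dhrs1 0.67, the nucleoporin gene Nup93 0.43, Pgm5 0.56 and the nucleolar protein gene Nom1 0.45, all without overlap. These 5 lost the threshold on omission of at least 5 of the 9 libraries in turn. Without hTDP-43A315T replicate 4 the adjusted p was 0.082 for Plin2, 0.227 for Dhrs1, 0.132 for Nup93 and 0.121 for Nom1, and without replicate 2 it was 0.138 for Pgm5. Cdsn, an adhesion protein of the skin, rose from 4.94 to 11.7 normalized counts in the controls to 26.2 to 51.7 (2.06 ± 0.42, adjusted p = 0.0185, and 0.132 without hTDP-43A315T replicate 4). The noncoding Gm37800, at 3.65 to 10.3 against 0 to 1.14 (log2 change 3.73 ± 0.81, adjusted p = 0.0353, and 0.188 without hTDP-43A315T replicate 4), and an Ensembl gene without a symbol complete the risers together with Pcp2 and Cbln3, described with the other tissues.

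The fall of lowest adjusted p was among the smaller ones in size. Upp2, uridine phosphorylase, which cleaves uridine for salvage and breakdown, had normalized counts of 754, 722, 601 and 641 in hTDP-43A315T and 1030, 1188, 1020, 1216 and 1139 in Chat bacTRAP. All controls were above all hTDP-43A315T libraries, and both groups were tight (log2 change -0.68 ± 0.09, adjusted p = 9.69e-05). At 9 weeks the change was -0.65 (adjusted p = 2.94e-05) and in hTDP-43WT -0.02. Clns1a (pICln), a subunit of the complex that methylates Sm proteins before they are assembled into spliceosomal particles, had 1301, 1257, 1681 and 1215 against 2651, 2231, 2645, 2207 and 2439. It showed no overlap (-0.80 ± 0.13, adjusted p = 0.00154, and -0.88 at 9 weeks), with Rsf1os2 overlapping it on the other strand. Brwd1, a bromodomain reader of chromatin, had 2392, 2260, 2317 and 2139 against 2910, 3568, 3342, 3604 and 4742, with the control of replicate 1 the nearest (-0.64 ± 0.11, adjusted p = 0.00261).

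H2-Q2, a class I histocompatibility gene with many close relatives, had 31.9, 26, 28.5 and 32 against 57.5, 65, 71.2, 75 and 70.9 (log2 change -1.16 ± 0.21, adjusted p = 0.00522). Upp2, Clns1a, Brwd1, H2-Q2 and Gm38192 (-1.28, adjusted p = 0.00519) were the 5 falls that passed without any 1 library. Among the risers 13 did so, namely Gm13886, Lamr1-ps1, Serpina3n, Gfap, Vim, C4b, Lgals3, Cst7, Itgax, Mmp12, Ccn5, Rnasek and Gm15510. Of the other falls, Cacna1e, the pore of R-type calcium channels, had -0.79 (adjusted p = 0.0196), Tmtc4, a mannosyltransferase of the endoplasmic reticulum, -0.82 (0.0353), Cers4, a ceramide synthase, -0.56 (0.0366), and Ahsa2, related to an activator of Hsp90, -0.70 (0.0192). Exoc3l2 had -1.05 (0.0196), the olfactory receptor gene Olfr920 -1.49 (0.0382) and the noncoding D230017M19Rik -0.57 (0.00644). The groups did not overlap in these 7, and the change without hTDP-43A315T replicate 4 had an adjusted p of 0.0876 for Cacna1e, Ahsa2 and Exoc3l2, 0.188 for Tmtc4 and 0.0555 for D230017M19Rik. Without Chat bacTRAP replicate 5 it was 0.125 for Cers4 and 0.178 for Olfr920. Spaar, Gm15760, H2-M5, Gm15862 and Gm14827 fell by log2 changes from -2.07 to -1.45 at normalized counts of at most 33.9. All 5 lost the threshold without hTDP-43A315T replicate 2, Spaar and the 3 genes named Gm had their highest adjusted p without replicate 4 (0.132 for Spaar, 0.151 for the others), and H2-M5 stood at 0.208 without replicate 2. Abcc9, described with the vessel genes, Adcyap1 and an Ensembl gene without a symbol complete the falls. Gm38192 (Pigb), D230017M19Rik (Pecr) and Gm15862 (Tex52 and Nrip2) overlap the genes in parentheses on the other strand, and Gm37800 overlaps Rpl21-ps1, so their reads could belong to either. For 13 of the 20 falls, Chat bacTRAP replicate 1 was the control nearest to the hTDP-43A315T mean, as it was for 13 of the 29 risers.

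A further pattern was positional. C4b, Cdsn, H2-Q2 and H2-M5 all start between bases 34000000 and 38000000 of chromosome 17, the region of the histocompatibility complex, so 4 of the 49 genes that passed (8.16%) lay where 126 of the tested genes (0.693%) did. The window was drawn after the values were seen, 2 of the 4 rose and 2 fell, and whether the lines differ in the sequence of this region was not tested.

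The lists of motor neuron, interneuron and neuronal filament genes gave no call at 14 weeks. None of 21 cholinergic and motor neuron genes passed (median log2 change 0.02, 4 lower unadjusted, 1 lower by DESeq2). An unadjusted p below 0.05 was met by 6.05% of all genes as higher and 10.5% as lower. Chat, which makes acetylcholine, had normalized counts of 733, 817, 436 and 767 against 753, 362, 414, 637 and 378, which overlapped (0.46 ± 0.31, adjusted p = 0.435). The choline transporter gene Slc5a7 had -0.67 ± 0.31 (adjusted p = 0.272) and Uts2, urotensin of motor neurons, -0.83 ± 0.24 (adjusted p = 0.123). None of the 5 neuronal intermediate filament genes passed (0 unadjusted and 0 by DESeq2), with Nefl at -0.16 ± 0.09, Nefm at 0.28 ± 0.16, Nefh at 0.21 ± 0.14 and Prph at 0.33 ± 0.23. Nor did any of 21 interneuron genes (median -0.22, 6 lower unadjusted), 20 stress response genes (-0.11, 1 higher and 4 lower) or 15 heat shock and chaperone genes (0.01, 3 higher and 1 lower). The same held for 14 immediate early genes (-0.03, 1 higher), 16 clock genes (0.07, 3 higher) and 15 glucocorticoid-responsive genes (-0.25, 2 lower), and DESeq2 passed 0 genes in these 6 lists. Of 11 tested genes that the study names as candidates or as cell type markers, only Gfap, its astrocyte marker, passed. Tia1, a stress granule protein, stood at -0.99 (adjusted p = 0.122), Plekhb1 at -0.29 (0.21) and Tex26 at 0.80 (0.255). With the mitochondrial share as a covariate they stood at -0.17, -0.10 and 0.60. DESeq2 passed 1 of this list as higher and 1 as lower, and without Chat bacTRAP replicate 1 there were 2 higher and 1 lower. Values of Syngr4, Nhlh1 and Mxd3, also candidates of the study, are not given here.

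The lists of oligodendrocyte, lysosome and cholesterol genes gave no call at 14 weeks. Of all genes 6.05% were higher and 10.5% lower at an unadjusted p below 0.05. None of 25 myelin genes (median -0.13, 1 higher and 7 lower unadjusted, 1 lower by DESeq2), 14 precursor genes (-0.08, 2 lower, 0 by DESeq2) or 26 lysosome and autophagy genes (0.11, 3 higher, 0 by DESeq2) passed. None of 20 cholesterol synthesis genes passed either (median -0.27, 2 lower by DESeq2), though 6 were lower at an unadjusted p below 0.05, among them Msmo1 at -0.57 ± 0.16 (adjusted p = 0.122) and Cyp51 at -0.46 ± 0.15 (adjusted p = 0.157). At 9 weeks 3 of this list passed as lower, Msmo1 (-0.76), Cyp51 (-0.67) and Insig1 (-0.53). Without Chat bacTRAP replicate 1, 4 of the 20 passed as lower at 14 weeks.

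Genes of vessels, among other lists, went with the mitochondrial share. Of 20 endothelial and pericyte genes, Abcc9, a channel subunit of pericytes, passed as lower (-1.59 ± 0.34, adjusted p = 0.0302), with normalized counts of 80.4, 79.2, 60.6 and 75.7 against 78, 341, 197, 242 and 297. The lone low control was replicate 1, so the groups overlapped, and Abcc9 passed in 1 of the 9 omissions of a library, with an adjusted p of 0.132 without hTDP-43A315T replicate 4. The list's median was -1.29, and 17 of 20 genes were lower at an unadjusted p below 0.05, a threshold that 10.5% of all genes met in this direction. The summed CPM of the list was 223, 235, 230 and 226 in hTDP-43A315T and 223, 521, 421, 399 and 426 in Chat bacTRAP, which puts replicate 1 among the hTDP-43A315T libraries again. Slco1a4, a transporter of the blood-brain barrier, showed it for a single gene with 119, 101, 133 and 104 against 104, 1011, 773, 630 and 841 (-2.50 ± 0.62, adjusted p = 0.0774). Without replicate 1, 11 of the 20 passed as lower, and with the mitochondrial share as a covariate none did and the median was -0.17. Other lists moved in that fit too, with medians of 0.00 for astrocyte identity, 0.05 for meningeal, 0.03 for Schwann cell and 0.02 for ependymal genes. There the monocyte and lymphocyte list stood at -0.12, the skeletal muscle list at -1.91 and the interneuron list at -0.22. The 8 mitochondrially encoded genes tested had a median of -2.13. None passed, although all 8 were lower at an unadjusted p below 0.05, 5 passed as lower by DESeq2 and 7 without replicate 1.

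**Figure D5:**
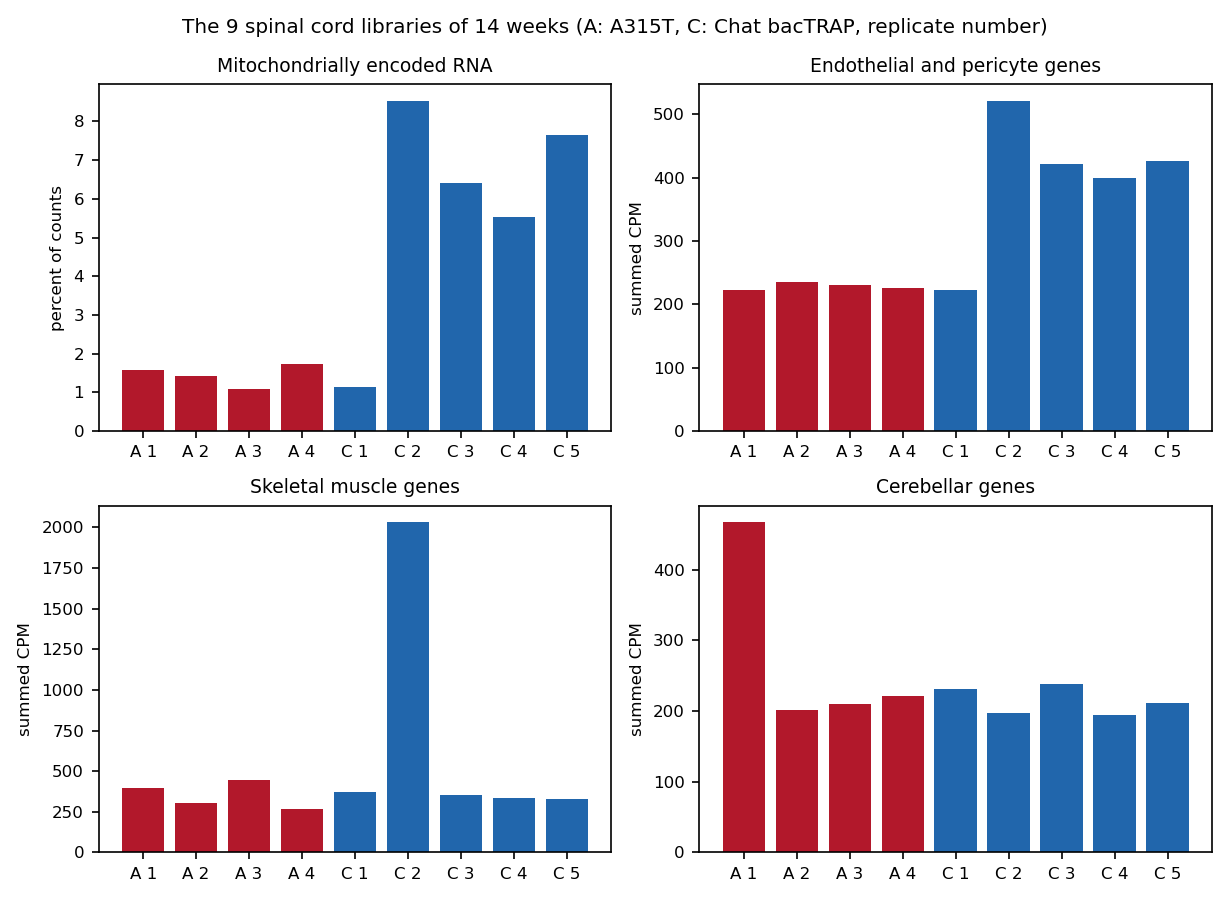
The 4 hTDP-43A315T (A, red) and 5 Chat bacTRAP (C, blue) libraries of 14 weeks by replicate number, as the share of counts from mitochondrially encoded genes in percent and as the summed CPM of endothelial and pericyte, skeletal muscle and cerebellar genes (vertical axes from 0). Chat bacTRAP replicate 1 has low bars in the upper panels (1.14% and 223 CPM), Chat bacTRAP replicate 2 stands out for muscle (2030 CPM) and hTDP-43A315T replicate 1 for cerebellar genes (467 CPM).

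The glial rises were measured beside this difference. With the mitochondrial share in the fit, 15 of the 29 risers still passed, and the median of the 29 was 1.58. Lgals3 stood at 2.09 (adjusted p = 0.000269), Serpina3n at 1.58 (0.000269), Cst7 at 3.10 (0.00184) and Ccl4 at 2.99 (0.00206). Of the glial and immune genes, Gfap (0.59, adjusted p = 0.055), Irf8 (0.89, 0.101) and Nckap1l (0.74, 0.085) did not pass in this fit. The 20 falls kept their sign with a median of -0.84, and 3 of them still passed, Upp2 (adjusted p = 0.000921), Clns1a (0.000106) and Exoc3l2 (0.0478). Chat bacTRAP replicate 1, the control with a mitochondrial and vessel content like that of the hTDP-43A315T libraries, lay below all 4 of them for Serpina3n, Lgals3, Cst7, Itgax and Gfap, at 1773, 301, 7.63, 4.42 and 34920 normalized counts. The groups did not overlap for these genes, so the same held for every other control. Replicate 1 was the highest control for Lgals3 and Gfap. What set the libraries apart was not tested.

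Some libraries stood apart for genes typical of other tissues, whose source was not tested. hTDP-43A315T replicate 1 was high in cerebellar genes, with Pcp2, a Purkinje cell gene, at 333 normalized counts beside 6.25, 6.54 and 9.4 in the other 3, and Cbln3, a granule cell gene, at 664 beside 44.3, 39.8 and 58.3. The controls held 0 to 16.5 of Pcp2 and 38.6 to 50.3 of Cbln3. Both passed (log2 changes 3.66 and 2.21), but without that replicate they stood at 0.10 (adjusted p = 0.947) and 0.13 (0.8). Over a list of 12 cerebellar genes, of which 11 were tested, the summed CPM was 467 in this library and 194 to 239 in the other 8. The dorsal root ganglion list, sensory neurons beside the cord, had no gene that passed (4 higher unadjusted, 0 by DESeq2), a median of 1.14 and summed CPM of 15.9 to 38.1 in hTDP-43A315T and 8.54 to 19.7 in Chat bacTRAP. Chat bacTRAP replicate 2 held skeletal muscle genes at 2030 CPM, beside 267 to 446 in the other 8, and erythrocyte genes at 1715 CPM beside 281 to 956. None of 15 muscle genes (median -2.68, 7 lower unadjusted, 2 by DESeq2) or 10 ependymal genes (-0.43, 3 lower, 2 by DESeq2) passed. Nor did any of 6 erythrocyte genes (-0.08, 1 lower), 16 monocyte and lymphocyte genes (-0.94, 5 lower), 16 meningeal genes (-0.54, 3 lower), 10 Schwann cell genes (-0.52, 5 lower) or 19 Hox genes (-0.05, 1 lower), with 0 by DESeq2. An unadjusted p below 0.05 was met by 6.05% of all genes as higher and 10.5% as lower. Without Chat bacTRAP replicate 2, 27 of the genes that passed were higher and 10 lower, and 21 of the 29 risers still passed.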

How the data were processed

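RNA was sequenced from 4 hTDP-43A315T and 5 Chat bacTRAP spinal cord lysates of 14-week-old mice, within a series of 56 libraries. The authors aligned reads with STAR to the mouse genome (mm10) and deposited whole-number counts per gene, made with featureCounts, for each library. They also deposited the same counts divided by 1 DESeq2 size factor per library, a signal in normalized counts that was used here to show levels. Per the study's methods featureCounts was run with standard parameters, which do not use strand.

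Counts were tested with edgeR 4.0.16 in R 4.3.3 (filterByExpr, TMM, robust quasi-likelihood F-test), in 1 fit of 6 groups over the 31 cord libraries, with Benjamini-Hochberg adjustment over 18178 genes. The contrasts at 9 weeks, with hTDP-43WT and between the ages came from the same fit. Groups followed the sample titles. Alternatives used DESeq2 1.42.0, limma 3.58.1, other libraries, filters and size factors, a replicate block, and each library left out. A fit with the mitochondrial share as a covariate was added after the data were seen. The scripts were tested on simulated data. The range of library depths is given in the text, and intervals for ratios of counts cover counting error only. No per-sample column was left unused.

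Members and gene lists were chosen with earlier results of these data known. Named genes were Serpina3n and Lgals3, the 12 largest rises and falls at a mean of at least 1 CPM without overlap between the groups, up to 4 genes of smallest p per list, and genes linked to the transgenes or named by the study. Not all genes named by the study are described in the text. The other genes in the text, among them Mmp12, Irf8, Nckap1l, Clec7a, Lyz2, Apoe, Cxcl10, Lcn2, C1qa, C1qb, C1qc, Insig1, Plin2, Dhrs1, Nup93, Pgm5, Nom1, Cdsn, Gm37800, Pcp2, Cbln3, Spaar, Gm15760, H2-M5, Gm15862 and Gm14827, were chosen after their values were seen, as was the cerebellar list. Promoter windows and gene positions came from RefSeq and the annotation of GRCm38.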

Additional observations from a re-analysis of the deposited data

Results flagged for a closer look

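Of 186 groups of values examined, 14 held a library whose gap to the next one was large for the size of its group, where chance gives about 1 in 20. In hTDP-43A315T replicate 1 the cerebellar genes Pcp2 (333 normalized counts) and Cbln3 (664) and the summed cerebellar list (467 CPM) stood far above the other 3 replicates. The same library was the highest of its group for Tia1 (854), Cfp (111) and Gm14827 (9.89). In hTDP-43A315T replicate 4 Vim stood apart at 4540.

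Chat bacTRAP replicate 2 was set apart by the summed skeletal muscle genes (2030 CPM) and erythrocyte genes (1715 CPM). It was also the highest control for Cfp (414 normalized counts), Socs3 (107) and Plekhb1 (31321). Olfr920 stood apart in Chat bacTRAP replicate 5 (111), and Lamr1-ps1 in replicate 1 (0.402), where the other 4 controls had no read. The causes were not tested.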

How the results depend on the processing

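The direction of the named genes was steadier than their number. Of 1488 values of 83 genes under 18 alternatives, 1081 stayed on their side of the threshold, 353 lost it, 54 gained it, 0 of the genes that passed changed sign and 11 values of other genes did. Against 49 genes past the threshold (29 higher, 20 lower) and 30 of them at least 2-fold changed, DESeq2 gave 312 (94 and 218) and 149 (24 and 125), and limma-voom 2854 (1404 and 1450) and 445 (173 and 272). Without a filter on low counts there were 33 (21 and 12) and 22 (17 and 5). Fitting all 56 libraries gave 4 (4 and 0) and 4 (4 and 0), the 14-week cord libraries alone 18 (15 and 3) and 14 (13 and 1), and the 9 libraries alone 13 (12 and 1) and 12 (11 and 1). With the mitochondrial share as a covariate, an alternative chosen after seeing the data, there were 28 (24 and 4) and 22 (21 and 1). Leaving out 1 library gave 20 to 907 genes (15 to 317 higher, 5 to 590 lower) and 14 to 319 of at least 2-fold (12 to 37 higher, 2 to 282 lower), the high ends without Chat bacTRAP replicate 1. The causes were not tested. Of 630 list medians, 50 moved.

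A replicate block over the 9 libraries gave 9 genes (9 higher, 0 lower) and 8 of at least 2-fold (8 and 0), with Lgals3 at 2.30 (adjusted p = 0.291) and Serpina3n at 1.48 (0.372). Same-numbered libraries correlated at -0.056, -0.332, 0.317 and -0.0335 in their deviations, and the labels do not tie numbers to animals, so the numbers were not taken as pairs.

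With 4 against 5 libraries the exact test of a single value cannot go below p = 0.0159, and low genes such as Mmp12, Gm37800 and Gm15760 rest on few reads per control.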

Other observations

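Scn10a, a sodium channel of sensory neurons, had 91.3, 0.521, 4.75 and 40.4 normalized counts in hTDP-43A315T and at most 4.94 in Chat bacTRAP (log2 change 3.94, adjusted p = 0.231 by edgeR). The dorsal root ganglion list it belongs to had a median log2 change of 1.14 at 14 weeks and -0.70 at 9 weeks, with no gene past the threshold at either age. Tgm1, a transglutaminase gene, had a log2 change of 1.85 (adjusted p = 0.133) at 14 weeks.

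The endothelial and pericyte list also had no gene past the threshold at 9 weeks. Its median log2 change was still negative at that age, and only somewhat smaller in size than at 14 weeks. Tek, a receptor of endothelial cells, stood at -2.11 (adjusted p = 0.0777) at 14 weeks and Myh11, of smooth muscle, at -1.72 (0.0503).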
